A study of Homo sapiens with 4 samples.

Results

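The comparison set gene expression with BDS4 against gene expression with RVX-208 in LX-2 cells, an immortalised human hepatic stellate cell line, when TGF-β was present in both cultures. Its members were all genes that reached at least 1 scaled CPM (counts per 1e+06 counts) in either library, which were 15455 of the 63241 genes counted. Each side was 1 RNA sequencing library. Both cultures were held for 24 h in medium with 0.5% serum and then given TGF-β at 20 ng/mL for 24 h together with 5 µM of BDS4 or 5 µM of RVX-208, so dose and time were matched. The 2 other libraries of the study, an untreated control and TGF-β alone, were starved in the same way and are shown as reference levels. DMSO is named in the description of the TGF-β library and not in that of the control. At the limit of 1 CPM, ANK1 (17 counts and 1.01 CPM with RVX-208) lay just inside and PAX2 (20 counts and 0.981 CPM with BDS4) just outside.

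Hepatic stellate cells store vitamin A in healthy liver, and TGF-β drives them to become contractile myofibroblasts that deposit collagen. BET proteins bind acetylated histones through a pair of bromodomains, BD1 and BD2, and bring the elongation factor P-TEFb and Mediator to active genes and enhancers. RVX-208, also called apabetalone, binds BD2 more tightly than BD1. BDS4 is known here only by its code name, and the title of the study speaks of covalent inhibitors that attack a lysine of BD1. The comparison addresses how the transcripts of activated stellate cells differ between cells given one compound and cells given the other.

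Because there was 1 library a side, no variation between cultures was measured and no test across replicates could be made. Each ratio is followed in brackets by a 95% exact (Clopper-Pearson) counting interval, which covers counting error only. A gene is called higher or lower with BDS4 where the ratio of scaled counts was at least 2-fold and the interval excluded equality. In bulk RNA, fewer cells expressing a gene and less RNA per cell cannot be told apart. Total counts were 21618509 with BDS4 and 17022369 with RVX-208, and a count of 3, the limit that 0 counts allows, corresponded to 0.147 and 0.178 CPM. Of 15 stellate cell markers 11 passed 1 CPM. VIM stood at 4080 and 4052 CPM with BDS4 and RVX-208 and LRAT, DCN and GFAP had at most 4 counts in either. Defining markers of hepatocytes (ALB, at most 3 counts) and leukocytes (PTPRC, at most 4 counts) were near 0 in both. Mitochondrial ribosomal RNA took 0.903% of counts with BDS4, and 0.230%, 0.212% and 0.248% with RVX-208, in the control and with TGF-β alone. The part of this difference in the results below was not tested.

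Of the 15455 genes, 1854 were higher (12.0%) and 2016 lower (13.0%) with BDS4 than with RVX-208, and the median log2 ratio was 0.01. At 4-fold or more, 520 genes were higher and 522 lower, and at 8-fold or more the counts were 174 and 159. Within 1.5-fold lay 8332 genes (53.9%). Close to the limit of the rule, 677 called genes differed by 2 to 2.2-fold and 916 genes that were not called by 1.8 to 2-fold. Most genes thus had similar levels in the 2 libraries, and about as many genes were higher as lower. The shares of 12.0% and 13.0% are the background for the counts of each gene list below.

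**Figure D1:**
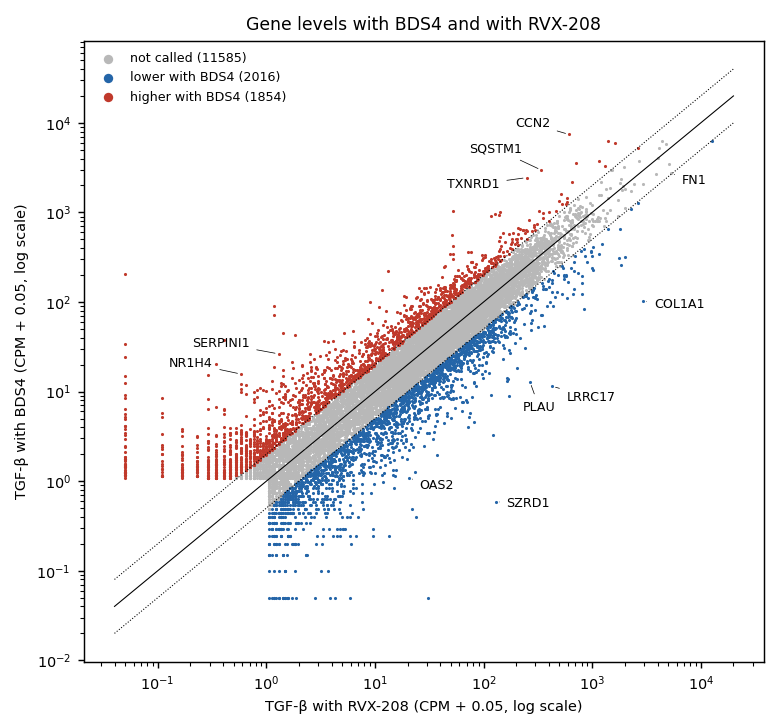
Scaled CPM of the 15455 genes with RVX-208 (horizontal) and with BDS4 (vertical), each plus 0.05 and on log axes, with 1 library a side. Red points were called higher and blue points lower with BDS4, the solid line marks equality and the dotted lines 2-fold. CCN2 lies far above the line and COL1A1 far below it.

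The highest ratios belonged to genes of several kinds. NR1H4, on chromosome 12 (100473708 to 100564413, plus strand, GRCh38), encodes the bile acid receptor FXR. It stood at 0.251 CPM in the control, 0.0453 with TGF-β alone, 15.6 with BDS4 and 0.535 with RVX-208, and was 29.3-fold higher (15.2 to 64.6) with BDS4 than with RVX-208 on 319 and 9 counts. CCN2, on chromosome 6 (131948176 to 131951373, minus strand, GRCh38), encodes connective tissue growth factor, a matricellular protein. Its level was 161 CPM in the control, 545 with TGF-β alone, 7432 with BDS4 and 612 with RVX-208, which is 12.1-fold higher (11.9 to 12.4). The BDS4 library thus stood alone, with the other 3 between 161 and 612 CPM. Further genes above 7-fold were SERPINI1, which encodes neuroserpin (26.3 against 1.25 CPM), PLCL1 (12.1 against 0.535 CPM), the stem cell factor gene KITLG (135 against 11.6 CPM), the neurotrophin receptor gene NGFR (553 against 51.4 CPM), the Notch ligand gene DLL4 (35.6 against 3.62 CPM), SAT1, which encodes an enzyme of polyamine breakdown (906 against 116 CPM), RNF227 (100.1 against 8.91 CPM), ALOXE3 (10.8 against 0.832 CPM) and VWA5B2 (18.2 against 1.72 CPM). TXNRD1, SQSTM1 and SLC7A11 belonged to this group too and are described with the oxidative stress genes.

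The lowest ratios were led by SZRD1, on chromosome 1 (16352575 to 16398145, plus strand, GRCh38). It stood at 37.4 CPM in the control, 104 with TGF-β alone, 0.539 with BDS4 and 129 with RVX-208, and with 11 counts against 2177 it was 239.8-fold lower (134 to 481). LRRC17, on chromosome 7 (102912991 to 102944949, plus strand, GRCh38), encodes a secreted leucine-rich repeat protein. Its levels were 104 CPM in the control, 331 with TGF-β alone, 11.4 with BDS4 and 427 with RVX-208, and it was 37.4-fold lower (32.8 to 42.8). Other genes of this group were FBXO34 (4.02 against 71.4 CPM), PTPRE, which encodes a tyrosine phosphatase (5.74 against 74.4 CPM), NNMT, a nicotinamide methyltransferase (13.8 against 166 CPM), FRMD4A (14.3 against 165 CPM), NDST1, a heparan sulfate sulfotransferase (18.4 against 205 CPM), and the keratin gene KRT81 (13.0 against 164 CPM). With TGF-β alone, the levels of SZRD1, LRRC17, FBXO34, PTPRE, NNMT and FRMD4A lay within 1.4-fold of those with RVX-208. For these genes the low library was that with BDS4.

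**Figure D2:**
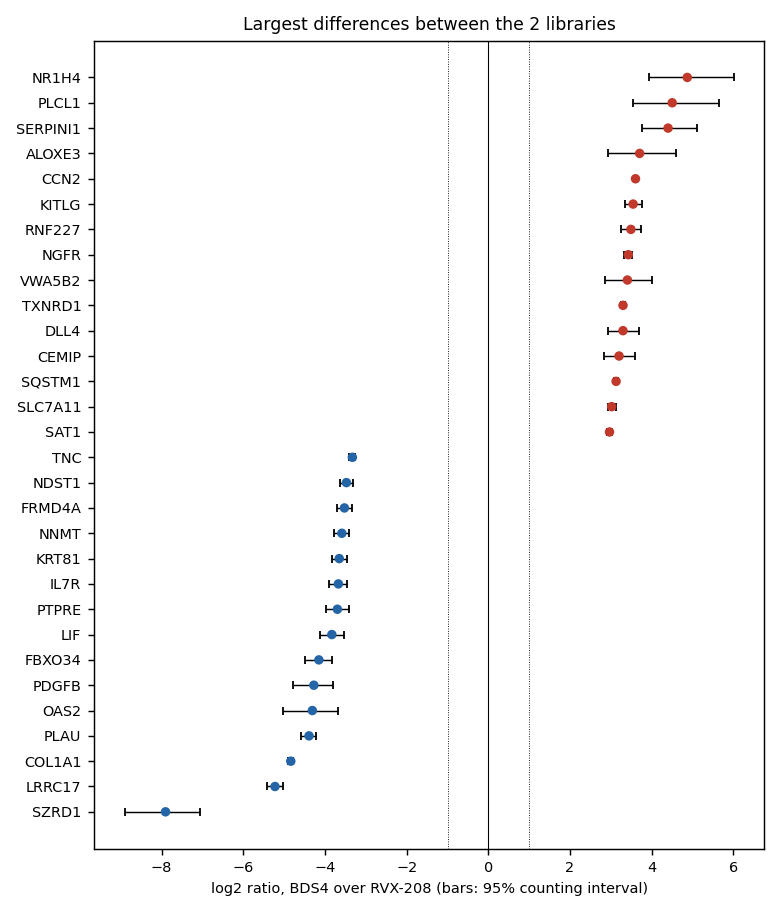
Log2 ratio of BDS4 over RVX-208 (horizontal) for the 15 highest and 15 lowest protein-coding genes by the rule for named genes, with 95% counting intervals as bars and dotted lines at 2-fold. SZRD1, at -7.91, lies apart from the next gene, LRRC17, at -5.23.

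Genes were then grouped by their response to TGF-β alone against the control, a comparison that shares no library with that of the 2 compounds. TGF-β raised 741 of the 15455 genes (4.79%) by the same rule. Of these, 129 were higher (17.4%) and 282 lower (38.1%) with BDS4 than with RVX-208, with a median log2 ratio of -0.60. TGF-β lowered 531 genes (3.44%), and of these 171 were higher (32.2%), 85 were lower (16.0%) and the median was 0.34. Among the other 14183 genes the shares were 11.0% and 11.6% and the median was 0.01. The transcripts that TGF-β had raised thus tended to be lower in the BDS4 library and those it had lowered tended to be higher, with exceptions in both groups. Among the 190 genes that TGF-β raised beyond a log2 ratio of 2, 45.8% were lower with BDS4, 18.4% were higher and the median was -0.93. With genes under 5 CPM left out, the medians were -0.64 for 450 raised and 0.46 for 262 lowered genes. Set against TGF-β alone, which selected these genes and is shared by both ratios, the raised genes had medians of -0.97 with BDS4 and -0.42 with RVX-208, and the lowered genes 0.92 and 0.39.

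**Figure D3:**
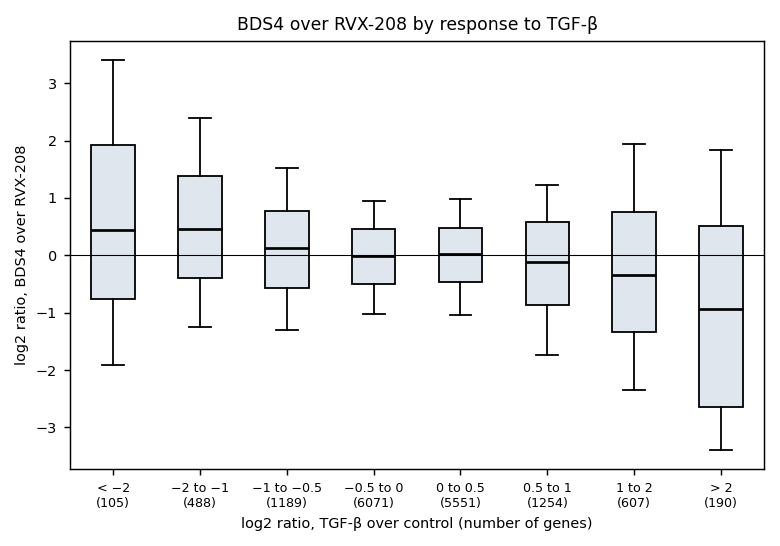
Log2 ratio of BDS4 over RVX-208 (vertical) for genes binned by their log2 ratio of TGF-β over control (horizontal, number of genes in brackets). Boxes span the quartiles with the median as a line, and whiskers the 10th to 90th percentile over genes. Medians go from 0.44 in the bin below -2 to -0.93 in the bin above 2.

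Fibrillar collagen mRNAs, which encode the tensile fibres of scar, were lower with BDS4 in 4 of 5 measured members, and 0 were higher. COL1A1, on chromosome 17 (50183289 to 50201632, minus strand, GRCh38), encodes the α1 chain of type I collagen. It stood at 2075 CPM in the control, 4705 with TGF-β alone, 103 with BDS4 and 2935 with RVX-208, and was 28.6-fold lower (27.4 to 29.9). Its level with BDS4 was thus also far under that of the untreated control, while the RVX-208 library lay between control and TGF-β. COL1A2, the partner chain, was near the limit for inclusion. It had 4 counts with BDS4 and 27 with RVX-208 (0.196 against 1.60 CPM), and was 8.18-fold lower (2.85 to 32.2). The type V chains, which set fibril diameter, had 243 against 999 CPM (COL5A1) and 139 against 676 CPM (COL5A2). Only COL2A1 among the measured fibrillar collagens had a ratio above 1, with 8.43 against 4.22 CPM, just under 2-fold, and it was not called. COL3A1 had 2 and 10 counts, under the limit for inclusion, as were COL5A3 and COL11A1. The list had a median log2 ratio of -2.28, against 0.01 over all genes.

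The other collagens were lower in 9 of 15 members and higher in 1, with a median of -1.15. The basement membrane chains COL4A1 and COL4A2 stood at 196 against 813 CPM and 309 against 1774 CPM. COL6A3, a chain of the beaded filament collagen, had 8.73 against 78.5 CPM, whereas its partners COL6A1 (1.15-fold, 1.10 to 1.21) and COL6A2 (0.994-fold, 0.956 to 1.03) were not called. COL16A1 (0.539 against 7.54 CPM) and COL27A1 (12.9 against 81.0 CPM) were lower too. COL18A1, which encodes the endostatin precursor, was 13.0-fold lower (8.47 to 20.9). Its levels were 1.13 CPM in the control, 1.63 with TGF-β alone, 1.13 with BDS4 and 14.7 with RVX-208, so here the RVX-208 library was the one that stood apart. COL14A1 had 24 counts with BDS4 and 0 with RVX-208, at least 6.60-fold higher.

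Among the enzymes that process collagen, 6 of 16 were lower and 1 was higher (median -0.65). The lower ones were the lysyl oxidases LOXL1, LOXL3 and LOXL4 that cross-link fibres, the transglutaminase gene TGM2, the collagen chaperone gene SERPINH1 (41.8 against 144 CPM) and the procollagen proteinase gene BMP1 (36.1 against 127 CPM), which shares exon sequence with a neighbouring gene. P4HA1, a subunit of prolyl 4-hydroxylase, was the higher one (181 against 71.6 CPM, 2.52-fold higher, 2.36 to 2.70). The lysyl hydroxylase gene PLOD2 had 168 against 274 CPM and was not called.

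Of 18 measured matrix glycoproteins and proteoglycans, 6 were lower and 0 higher (median -0.79). Tenascin C (TNC), a matrix protein of wounds, stood at 551 CPM in the control, 1030.1 with TGF-β alone, 84.0 with BDS4 and 845 with RVX-208, and was 10.1-fold lower (9.57 to 10.6). TGFBI, an integrin-binding matrix protein named after its induction by TGF-β, was 6.36-fold lower (6.20 to 6.54). SPARC, VCAN, LAMB1 and THBS2 completed the group at 2.05-fold to 3.57-fold lower. FN1, which encodes fibronectin, stood at 2001 CPM in the control, 11140.4 with TGF-β alone, 2726 with BDS4 and 5299 with RVX-208. Its ratio of 1.94-fold lower (1.92 to 1.96) was under the 2-fold rule, and under scaling by total counts alone it passed it (log2 ratio -1.03). THBS1 (0.948-fold, 0.929 to 0.968) and FBN2 (0.966-fold, 0.922 to 1.01) lay close to equality.

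The metalloproteinases, which cut matrix, and their TIMP inhibitors went both ways, with 4 of 11 higher and 4 lower. The median was 0.41 and the mean -0.35, and with genes under 5 CPM left out the median was -0.10, so the list had no stable direction. MMP2, a gelatinase that degrades basement membrane collagen, stood at 22.0 CPM in the control, 251 with TGF-β alone, 8.78 with BDS4 and 172 with RVX-208, and was 19.6-fold lower (16.8 to 22.9). This gene shares exon sequence with a neighbouring gene. MMP14, the membrane-bound activator of pro-MMP2, was 7.95-fold lower (7.30 to 8.66), and MMP9, the other gelatinase, was 8.56-fold lower (5.05 to 15.5). The interstitial collagenase gene MMP1 stood at 74.1 CPM in the control, 26.8 with TGF-β alone, 359.6 with BDS4 and 71.6 with RVX-208, and was 5.02-fold higher (4.73 to 5.34). Thus both gelatinases and the activator were low with BDS4 while this collagenase was high. MMP10 (6.40-fold higher, 2.26 to 24.9) and MMP15 were higher and MMP19 lower. TIMP3 was 2.03-fold higher (1.92 to 2.15), a call that ended under scaling by total counts (log2 ratio 0.95). TIMP1 (1.33-fold, 1.29 to 1.36) and TIMP2 (0.655-fold, 0.642 to 0.668) were not called. TIMP2 stood at 652 CPM in the control, 298 with TGF-β alone, 859.7 with BDS4 and 1313 with RVX-208, and was highest with RVX-208.

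In the plasminogen system, which activates proteases at the cell surface, 3 of 8 measured genes were lower and 1 was higher, with a median of 0.18 and a mean of -0.33. PLAU, the urokinase gene, stood at 86.0 CPM in the control, 230.2 with TGF-β alone, 12.7 with BDS4 and 268 with RVX-208, and was 21.0-fold lower (18.5 to 23.9). The urokinase receptor gene PLAUR (1.63-fold, 1.52 to 1.74) and the tissue activator gene PLAT (1.71-fold, 1.64 to 1.77) had ratios above 1 and were not called. SERPINB2, a urokinase inhibitor, was 4.71-fold higher (4.05 to 5.50).

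TGF-β signals through type I and type II receptors to SMAD2 and SMAD3, and latent TGF-β is held in the matrix by LTBP proteins. Of 24 measured components 5 were higher and 5 lower (20.8% each, against 12.0% and 13.0% of all genes tested). The ligand gene TGFB1 stood at 213 CPM in the control, 827 with TGF-β alone, 905 with BDS4 and 831 with RVX-208 (1.09-fold, 1.07 to 1.11), TGFB2 was 2.27-fold lower (2.01 to 2.57) and TGFB3 was 3.60-fold higher (2.45 to 5.43). The receptor genes TGFBR1 (1.26-fold, 1.17 to 1.37) and TGFBR2 (0.553-fold, 0.514 to 0.595) were not called, and the co-receptor endoglin (ENG) was 4.60-fold lower (4.22 to 5.01). None of SMAD2, SMAD3, SMAD4, SMAD6 or SMAD7 was called. LTBP2 was 8.58-fold lower (7.29 to 10.2) and LTBP3 was 2.60-fold lower (2.42 to 2.79). PMEPA1, which keeps SMADs from the receptor, stood at 5.78 CPM in the control, 355 with TGF-β alone, 53.3 with BDS4 and 357 with RVX-208, and was 6.70-fold lower (6.28 to 7.15). BAMBI, a decoy receptor, and SKI, a SMAD co-repressor, were 2.48-fold higher (2.16 to 2.85) and 2.28-fold higher (2.19 to 2.37).

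Of 30 TGF-β target genes 14 were lower and 4 higher, with a median of -0.76. FOXS1 and NOX4, a transcription factor and an NADPH oxidase, had 0 counts with BDS4 and 64 and 19 with RVX-208. With the 0 set to 3 counts they were 25.8-fold and 7.67-fold lower, values that are not ends of a counting interval. LIF, a cytokine of the IL-6 family, was 14.3-fold lower (11.7 to 17.5), JAG1, a Notch ligand, 5.63-fold lower (5.25 to 6.03), and NUAK1, a kinase, 6.52-fold lower (5.91 to 7.21). The 4 higher members were CCN2, its relative CCN1 (2.17-fold higher, 2.12 to 2.22), and the cell cycle inhibitors CDKN1A (2.50-fold higher, 2.40 to 2.61) and CDKN2B (2.34-fold higher, 2.11 to 2.59). JUNB, SKIL and SNAI1, which TGF-β raised against the control, had ratios of 0.902 (0.863 to 0.942), 0.966 (0.907 to 1.03) and, for SNAI1, close to 1 (0.802 to 1.25) between the compounds. The targets of TGF-β were therefore not lower as a block. Set against TGF-β alone, a library both ratios share, the medians of the list were -1.22 with BDS4 and -0.13 with RVX-208.

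Contractile and cytoskeletal genes give myofibroblasts their tension. Of 20 measured members 8 were lower and 2 higher, with a median of -0.73. Tropomyosin 1 (TPM1) stood at 602 CPM in the control, 1720.0 with TGF-β alone, 262 with BDS4 and 1851 with RVX-208, and was 7.06-fold lower (6.85 to 7.26). TPM4, myosin light chain kinase (MYLK), caldesmon (CALD1), the calponins CNN1 and CNN2, smooth muscle γ-actin (ACTG2) and TAGLN (SM22) were 2.24-fold to 4.51-fold lower. ACTA2, which encodes α-smooth muscle actin, the standard marker of the activated cell, had 19.2 against 24.6 CPM (0.782-fold, 0.679 to 0.900) and was not called. Filamin C (FLNC), an actin cross-linker of muscle, went the other way. It stood at 1719 CPM in the control, 1127 with TGF-β alone, 6262 with BDS4 and 1403 with RVX-208, and was 4.46-fold higher (4.40 to 4.53). Of 21 integrins and adhesion genes 5 were lower and 0 higher, among them the fibronectin receptor chain ITGA5 (3.70-fold lower, 3.54 to 3.87) and cadherin 11 (CDH11, 3.82-fold lower, 3.40 to 4.29). ITGB1 (1.02-fold, 1.01 to 1.04) was not called.

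Growth factors and receptors were divided, with 6 of 26 higher (23.1%) and 7 lower (26.9%), against 12.0% and 13.0% of all genes tested. PDGF is the main mitogen of stellate cells. PDGFB stood at 10.8 CPM in the control, 48.4 with TGF-β alone, 1.91 with BDS4 and 37.0 with RVX-208, and was 19.4-fold lower (14.0 to 27.5). Its receptor PDGFRB stood at 35.0 CPM in the control, 136 with TGF-β alone, 5.98 with BDS4 and 63.3 with RVX-208, and was 10.6-fold lower (8.77 to 12.9). PDGFC (3.85-fold lower, 3.58 to 4.15), VEGFC (8.34-fold lower, 7.05 to 9.93) and IGF1R (2.74-fold lower, 2.57 to 2.92) were lower as well, whereas PDGFD was 5.12-fold higher (3.78 to 7.07). PDGFRA was called lower on 11 and 26 counts, and the call ended when it was summed with the gene whose exons it shares (log2 ratio -0.06). KITLG stood at 28.6 CPM in the control, 12.8 with TGF-β alone, 135 with BDS4 and 11.6 with RVX-208, and NGFR at 34.4 CPM in the control, 24.1 with TGF-β alone, 553 with BDS4 and 51.4 with RVX-208. In both of these genes the BDS4 library was above the other 3.

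**Figure D4:**
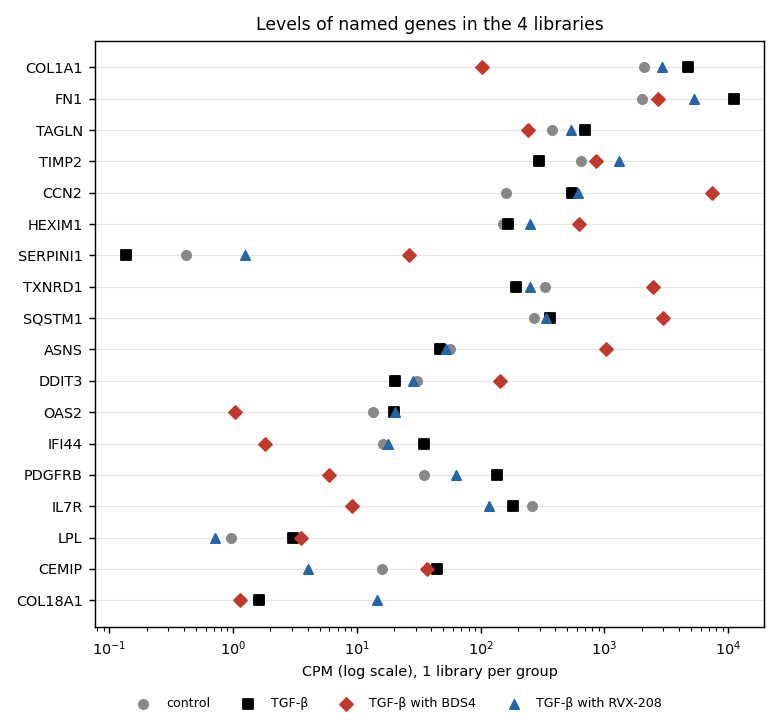
CPM on a log axis (horizontal) of 18 genes in the 4 libraries, 1 symbol a library. The genes were chosen after their values were seen. For CEMIP and COL18A1 the RVX-208 symbol lies apart from the other 3, while for CCN2, TXNRD1, SQSTM1, ASNS and OAS2 the BDS4 symbol does.

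Transcripts that often move with BET inhibitors were examined next. HEXIM1, which holds P-TEFb inactive and whose mRNA serves as a marker of BET inhibition, stood at 152 CPM in the control, 166 with TGF-β alone, 622 with BDS4 and 252 with RVX-208, and was 2.47-fold higher (2.39 to 2.56). SERPINI1 stood at 0.419 CPM in the control, 0.136 with TGF-β alone, 26.3 with BDS4 and 1.25 with RVX-208, and was 21.1-fold higher (13.7 to 34.4). In the list of 13 genes often higher after BET inhibition, 7 were higher and 0 lower with BDS4 than with RVX-208 (median 1.01). The histone genes H2AC6 (0.917-fold, 0.863 to 0.974) and H2BC4 (0.893-fold, 0.757 to 1.05) had more counts in both compound libraries than with TGF-β alone and did not differ by the rule between the compounds. They stood at 58.2 CPM in the control, 39.6 with TGF-β alone, 110.3 with BDS4 and 120.3 with RVX-208 and at 5.23 CPM in the control, 4.94 with TGF-β alone, 14.9 with BDS4 and 16.7 with RVX-208. Other histone genes differed between the compounds, such as H2BC5 (log2 ratio 1.57). Of 46 measured histone genes of the replication clusters, a family chosen after its values were seen, 33 were higher with BDS4 and 1 was lower. The mRNAs of this family mostly lack a poly(A) tail, and the kit was an mRNA kit. The share of mitochondrial ribosomal RNA also differed between the 2 libraries, as given above. The part of library preparation in the histone counts was not tested. Against TGF-β alone, a library both ratios share, the list of 13 genes had medians of 1.77 (BDS4) and 0.84 (RVX-208).

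Of 13 measured genes often lower after BET inhibition 6 were lower and 1 higher (median -0.79). IL7R, the interleukin 7 receptor gene, stood at 260.2 CPM in the control, 183 with TGF-β alone, 9.17 with BDS4 and 117 with RVX-208, and was 12.8-fold lower (11.0 to 14.9). The G1 kinase gene CDK6 was 4.87-fold lower (4.38 to 5.42) and its partner cyclin gene CCND1 2.68-fold lower (2.61 to 2.76). The hyaluronan synthase gene HAS2 (1.08 against 2.38 CPM) was lower on 22 and 40 counts. MYC, a textbook target of BET inhibitors, stood at 36.6 CPM in the control, 16.8 with TGF-β alone, 12.6 with BDS4 and 16.9 with RVX-208. Its ratio of 0.744 (0.626 to 0.884) was not called. CCND2 was the higher one (3.40-fold, 2.81 to 4.15), a call that ended when it was summed with an overlapping gene (log2 ratio 0.76). The BET genes BRD2 and BRD3 had ratios of 1.53 (1.40 to 1.65) and 1.19 (1.09 to 1.30), neither called. Of 17 BET and P-TEFb genes HEXIM1 was higher and its paralogue HEXIM2 lower (3.37-fold lower, 2.23 to 5.22). RVX-208 is known for raising APOA1 in hepatocytes. APOA1 had 0 counts in both libraries here.

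Oxidative and electrophilic stress frees the transcription factor NRF2 from its inhibitor KEAP1, and NRF2 then raises genes of glutathione and thioredoxin metabolism. Of 31 measured NRF2 targets 13 were higher and 1 lower, with a median of 0.69. Thioredoxin reductase 1 (TXNRD1) stood at 329.8 CPM in the control, 194 with TGF-β alone, 2449 with BDS4 and 249 with RVX-208, and was 9.83-fold higher (9.52 to 10.1). The autophagy receptor SQSTM1 stood at 270.3 CPM in the control, 366 with TGF-β alone, 2972 with BDS4 and 340.1 with RVX-208, and was 8.74-fold higher (8.51 to 8.98). In both genes the RVX-208 library lay near TGF-β alone and only the BDS4 library was high. The cystine transporter gene SLC7A11 (8.11-fold higher, 7.56 to 8.70), OSGIN1 (7.65-fold higher, 6.43 to 9.15), the glutathione synthesis genes GCLM (3.64-fold higher, 3.43 to 3.88) and GCLC, the heme oxygenase gene HMOX1 (3.76-fold higher, 3.32 to 4.27), EPHX1, SRXN1, GSR, PRDX1, FTL and NQO1 (2.29-fold higher, 2.15 to 2.43) were also higher. The aldo-keto reductases AKR1B1, AKR1C1, AKR1C2 and AKR1C3 were not called, nor were the pentose phosphate genes PGD, TKT and TALDO1. ABCC1 was 2.05-fold lower (1.76 to 2.40). NFE2L2, which encodes NRF2, had a ratio of 1.13 (0.987 to 1.29) and KEAP1 1.02 (0.940 to 1.11). A core of the antioxidant response element, TGACNNNGC on either strand, was in the promoter windows of 7 of 24 list members (29.2%), against 16.1% of all gene symbols. It was in 3 of 9 that were higher and 4 of 15 that were not called, and over all genes tested with a window in 19.4% of those higher, 16.3% of those lower and 19.6% of those not called. These RefSeq windows of 300 bases run from 250 before to 50 after the start (GRCh38.p14). The match of TXNRD1, the highest gene of the list by ratio, is shown in 60 bases at chr12:104215655-104215714 (plus strand), with the matching letters in capitals and 5′ to 3′ on the strand of the gene.
TXNRD1: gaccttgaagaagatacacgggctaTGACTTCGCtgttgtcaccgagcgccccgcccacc
Matching letters are a description and not a binding site.

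ATF4 is translated when amino acids are short or the endoplasmic reticulum is stressed, and it raises amino acid synthesis and transport genes. Of 30 measured members of this response 13 were higher and 1 lower (median 0.83). Asparagine synthetase (ASNS) stood at 56.1 CPM in the control, 46.9 with TGF-β alone, 1034 with BDS4 and 52.5 with RVX-208, and was 19.7-fold higher (18.4 to 21.1). DDIT3, which encodes CHOP, stood at 30.7 CPM in the control, 20.4 with TGF-β alone, 144 with BDS4 and 28.3 with RVX-208, and was 5.08-fold higher (4.61 to 5.61). Both share exon sequence with another gene, and both remained called higher with those genes summed. The glutathione-degrading CHAC1 (4.22-fold higher, 3.74 to 4.77), the serine synthesis gene PSAT1 (3.92-fold higher, 3.75 to 4.09), the amino acid transporter gene SLC3A2 (3.04-fold higher, 2.93 to 3.15), MTHFD2 (2.78-fold higher, 2.68 to 2.89) and ATF4 itself (2.95-fold higher, 2.74 to 3.18) were higher. TRIB3 (1.74-fold, 1.56 to 1.95), SLC7A5 (1.78-fold, 1.72 to 1.86) and ATF3 (36.4 against 21.4 CPM) had ratios above 1 without a call. GDF15, with 3 and 20 counts, was the lower one.

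The promoters of ATF4-response genes carry a C/EBP-ATF element. A core of TGATGNAA was searched on both strands in the same RefSeq windows. It was present in 10 of 27 list members with a window (37.0%), in 5 of 12 that were higher and 5 of 14 that were not called, against 4.46% of all 27305 gene symbols. Over all genes tested with a window the shares were 3.72% of those higher, 3.15% of those lower and 2.49% of those not called. Stretches of 60 bases around the match, with the matching letters in capitals, are given for 3 of the higher genes. They lie at chr7:97872442-97872501 (minus strand), chr15:40953237-40953296 (plus strand) and chr16:70289659-70289718 (minus strand) in that order and are written 5′ to 3′ on the strand of the gene.
ASNS: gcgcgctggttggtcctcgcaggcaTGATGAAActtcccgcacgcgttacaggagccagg
CHAC1: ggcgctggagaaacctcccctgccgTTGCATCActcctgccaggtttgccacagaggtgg
AARS1: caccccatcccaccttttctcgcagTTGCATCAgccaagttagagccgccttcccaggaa
In CHAC1 and AARS1 the element reads on the opposite strand.

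The chaperones that fold proteins in the endoplasmic reticulum did not follow the ATF4 genes. Of 22 only DNAJB9 (4.28-fold higher, 3.82 to 4.81) and the stress sensor gene ERN1 (3.41-fold higher, 3.18 to 3.66) were higher and HYOU1 was lower (32 and 63 counts). These shares of 9.09% and 4.55% lay under the 12.0% and 13.0% of all genes tested. The main chaperone gene HSPA5 had 839 against 992 CPM (0.846-fold, 0.828 to 0.864). Cytosolic heat shock genes had 3 of 16 higher, DNAJB1 (3.48-fold higher, 3.33 to 3.65), HSPA4L and HSP90AA1 (2.49-fold higher, 2.45 to 2.53), and 3 lower, the small heat shock protein genes HSPB1 (2.90-fold lower, 2.66 to 3.16) and HSPB8 and the regulator gene HSF1 (8 and 18 counts). Among 26 autophagy and lysosome genes, with a median of 0.37, 3 were higher, SQSTM1, the autophagosome membrane gene MAP1LC3B (3.57-fold higher, 3.36 to 3.79) and GLA (3.00-fold higher, 2.69 to 3.36). This share of 11.5% was no more than the 12.0% of all genes tested. TFEB, a regulator of lysosome genes, was 3.17-fold lower (2.07 to 4.96). Metallothioneins are near-identical copies whose counts are uncertain. MT1E was 4.34-fold lower (4.08 to 4.62) and MT2A 2.02-fold higher, the latter a call that ended under scaling by total counts (log2 ratio 0.95).

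Interferon-stimulated genes encode antiviral proteins and are switched on by type I interferon through factors that include STAT2 and IRF9. Of 39 measured members 25 were lower with BDS4 and 1 was higher (64.1% lower, against 13.0% of all genes), with a median of -1.52. OAS2, an oligoadenylate synthetase, stood at 13.6 CPM in the control, 20.0 with TGF-β alone, 1.03 with BDS4 and 20.4 with RVX-208, and was 19.8-fold lower (12.8 to 32.5). IFI44 stood at 16.1 CPM in the control, 35.1 with TGF-β alone, 1.81 with BDS4 and 17.8 with RVX-208, and was 9.79-fold lower (6.94 to 14.2). IFI44L had 3 and 101 counts, 40.8-fold lower (13.6 to 201). The viral RNA sensor gene IFIH1 (6.52-fold lower, 4.94 to 8.74), MX1 (4.16-fold lower, 3.07 to 5.73), IFIT1 (3.23-fold lower, 2.89 to 3.61), RSAD2 (4.75-fold lower, 4.02 to 5.64), ISG15 (2.47-fold lower, 2.25 to 2.71) and the chemokine gene CXCL10 (9.42-fold lower, 4.69 to 21.5, 9 and 70 counts) were lower too. In OAS2 the control, TGF-β and RVX-208 libraries lay between 13.6 and 20.4 CPM and the BDS4 library alone was low. IFITM1 and IFITM2, which were also lower, are near-identical neighbours and their split of counts is uncertain. IRF7 was 2.34-fold higher (2.02 to 2.72). The upstream factors STAT2 (1.53-fold, 1.42 to 1.65) and IRF9 (0.571-fold, 0.473 to 0.689) were not called. Against the shared TGF-β library the medians were -1.95 with BDS4 and -0.46 with RVX-208. Of 9 measured class I antigen presentation genes NLRC5 and PSMB9 were lower, and B2M (1.65-fold, 1.60 to 1.70) was not called.

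A core of the interferon-stimulated response element, which is GAAA, any pair of bases and GAAA again, was found on either strand in the windows of 22 of 31 interferon-stimulated genes (71.0%), against 4.38% of all gene symbols. It was in 16 of 20 that were lower and in 6 of 11 that were not called. Over all genes tested with a window the shares were 5.51% of those lower, 4.08% of those higher and 3.62% of those not called. The stretches around the match of 4 lower genes are given with the letters in capitals, at chr1:78620350-78620409 (plus strand), chr4:88457020-88457079 (plus strand), chr4:76023684-76023743 (minus strand) and chr2:162318685-162318744 (minus strand), each 5′ to 3′ on the strand of the gene.
IFI44L: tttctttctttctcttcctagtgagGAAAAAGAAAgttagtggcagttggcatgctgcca
HERC5: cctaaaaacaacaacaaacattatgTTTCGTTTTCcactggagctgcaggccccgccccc
CXCL10: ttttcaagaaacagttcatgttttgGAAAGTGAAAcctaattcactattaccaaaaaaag
IFIH1: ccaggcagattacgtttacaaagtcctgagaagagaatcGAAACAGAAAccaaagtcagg
The element of HERC5 reads on the opposite strand, and that of IFIH1 lies 21 bases before the start.

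Of 26 measured cytokine and NF-κB genes 8 were lower and 5 higher, with a median of -0.42. IL6 stood at 5.40 CPM in the control, 18.8 with TGF-β alone, 1.47 with BDS4 and 12.4 with RVX-208, and was 8.40-fold lower (5.71 to 12.8). IL1B (5.05-fold lower, 4.54 to 5.62), LIF and the chemokine gene CXCL12 (7.61-fold lower, 5.33 to 11.1) were lower as well, and CSF3, PTGS2 and SOD2 were higher. The neutrophil chemokine gene CXCL8 stood at 13.7 CPM in the control, 7.38 with TGF-β alone, 106 with BDS4 and 26.1 with RVX-208, and was 4.04-fold higher (3.64 to 4.48). CXCL1, a chemokine for the same receptor, was 6.28-fold higher (5.44 to 7.28), while CXCL2, CXCL3 and CXCL5 were not called. NFKB1 was 2.44-fold lower (2.22 to 2.68) and the inhibitor gene NFKBIA, at 0.618-fold (0.537 to 0.712), was not called.

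Immediate early genes answer growth signals within minutes and encode mainly AP-1, EGR and NR4A factors. Of 28 members 10 were higher and 2 lower (median 0.55). DUSP6, a phosphatase that restrains ERK, stood at 27.8 CPM in the control, 87.9 with TGF-β alone, 999 with BDS4 and 143 with RVX-208, and was 6.99-fold higher (6.70 to 7.30). EGR1 (3.00-fold higher, 2.87 to 3.13), EGR3, FOS (4.31-fold higher, 3.43 to 5.48), FOSB, NR4A2, NR4A3, KLF2, DUSP5 and the mRNA decay factor gene ZFP36 (4.56-fold higher, 3.89 to 5.38) were higher. JUN (1.06-fold, 1.02 to 1.09) and JUNB were not. EGR2 was 3.96-fold lower (2.92 to 5.47). IER2 stood at 108 CPM in the control, 39.0 with TGF-β alone, 0.932 with BDS4 and 2.49 with RVX-208, so that both compound libraries were far under the other 2, and with 19 and 42 counts it was 2.68-fold lower (1.52 to 4.88). YAP and TEAD targets went both ways. ANKRD1 (6.78-fold higher, 6.50 to 7.08), CCN1, CCN2 and TEAD1 were higher, AXL (3.39-fold lower, 3.30 to 3.48), NT5E, MYOF, FOXF2, AJUBA and PTPN14 lower, and YAP1 was not called (0.515-fold, 0.489 to 0.542).

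Among mitosis genes 9 of 26 were lower and 0 higher, with a median of -0.55. The mitotic kinase gene PLK1 stood at 108 CPM in the control, 131 with TGF-β alone, 20.8 with BDS4 and 70.1 with RVX-208, and was 3.37-fold lower (3.01 to 3.78). AURKA (2.45-fold lower, 2.29 to 2.62), PRC1, CCNB1 (2.26-fold lower, 2.17 to 2.35), UBE2C and CDC20 were lower by smaller ratios, and BUB1B, TPX2 and CENPA lay at the edge of the 2-fold rule. MKI67 (1.11-fold, 1.08 to 1.13) and CDK1 (0.958-fold, 0.913 to 1.01) were not called. Replication genes showed 2 of 27 higher, the ribonucleotide reductase gene RRM2 (2.49-fold higher, 2.43 to 2.56) and CCNE2 (2.03-fold higher, 1.87 to 2.22), and 1 lower, MCM5 (2.92-fold lower, 2.72 to 3.14), shares under those of all genes tested. CCNE2 lost its call under scaling by total counts (log2 ratio 0.96). In the list of 13 D cyclins, kinases and inhibitors, CCND1 and CDK6 were lower, and CCND2 and the inhibitor genes CDKN1A, CDKN1C, CDKN2B and CDKN2D were higher. CDKN1A stood at 86.5 CPM in the control, 108 with TGF-β alone, 444 with BDS4 and 177 with RVX-208. Of 21 measured p53 targets 4 were higher (19.0%) and 1 lower (4.76%), against 12.0% and 13.0% of all genes tested. The higher ones included GADD45A (2.72-fold higher, 2.62 to 2.82) and the death receptor gene TNFRSF10B (2.30-fold higher, 2.21 to 2.40). PHLDA3 was the lower one (9.10-fold lower, 7.08 to 11.9). Of 22 BCL2 family and death receptor genes 4 were higher (18.2%) and 2 lower (9.09%), beside the same 12.0% and 13.0%. The median of this list was 0.01. BCL2L1, which encodes the survival protein BCL-XL, was 2.77-fold lower (2.52 to 3.04), and BCL2L11, which encodes the death factor BIM, was 2.11-fold higher (1.93 to 2.31). MCL1 (1.14-fold, 1.09 to 1.19) was not called.

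Cells make cholesterol from acetyl-CoA by the mevalonate pathway, under the control of SREBP2. Of 25 measured cholesterol synthesis and sterol genes 8 were lower and 1 higher, with a median of -0.82. HMGCS1, which encodes the synthase for HMG-CoA, stood at 170.4 CPM in the control, 639 with TGF-β alone, 222 with BDS4 and 678 with RVX-208, and was 3.06-fold lower (2.96 to 3.17). MSMO1 (2.68-fold lower, 2.56 to 2.80), FDPS (2.48-fold lower, 2.33 to 2.63), DHCR7, CYP51A1, MVK and HSD17B7 were among the lower ones. SQLE (0.953-fold, 0.914 to 0.994) and IDI1 (1.02-fold, 0.960 to 1.07) were near equality, and INSIG1, a brake on the pathway, had 1.43-fold (1.38 to 1.48). TCACNCCAC, a core of the sterol regulatory element, was in the promoter windows of 1 of 19 list members on either strand and in 0 of 7 that were lower, against 1.39% of all gene symbols. The call of TM7SF2, the higher one, ended with exon-sharing genes summed (log2 ratio 0.15). The endothelial lipase gene LIPG stood at 2.64 CPM in the control, 72.7 with TGF-β alone, 7.60 with BDS4 and 70.3 with RVX-208, and was 9.25-fold lower (7.82 to 11.0). ABCA1 (2.09-fold lower, 1.89 to 2.31) and the desaturase gene SCD (2.06-fold lower, 2.03 to 2.09) were lower, and FADS2 lost the call of lower with overlapping genes summed (log2 ratio -0.55). PPARG, a factor of the quiescent stellate cell, had 4 and 20 counts and was 6.06-fold lower (2.03 to 24.4). Of 26 glycolysis and hypoxia genes 4 were higher (SLC2A3, ADM, NDRG1 and EGLN3) and 0 lower, and the 15.4% higher lay near the 12.0% of all genes tested. In the complement and coagulation list 2 of 14 measured genes were higher and 2 lower. These shares of 14.3% each lay near the 12.0% and 13.0% of all genes tested. The coagulation inhibitor gene TFPI was 8.02-fold lower (6.46 to 10.1) and TFPI2 3.13-fold higher (3.03 to 3.24). The complement gene C3 was lower and the complement regulator gene CD55 higher (2.87-fold higher, 2.45 to 3.38).

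In some genes the call came from the RVX-208 library. CEMIP, which degrades hyaluronan, stood at 16.0 CPM in the control, 44.5 with TGF-β alone, 37.1 with BDS4 and 4.04 with RVX-208, and was 9.19-fold higher (7.16 to 12.0). The lipoprotein lipase gene LPL stood at 0.963 CPM in the control, 3.03 with TGF-β alone, 3.53 with BDS4 and 0.713 with RVX-208, and was 4.95-fold higher (2.67 to 10.0) on 72 and 12 counts. COL18A1, described above, is the example in the other direction. These levels show a low or high RVX-208 library beside BDS4 and TGF-β libraries that lay within 1.5-fold of each other.

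**Figure D5:**
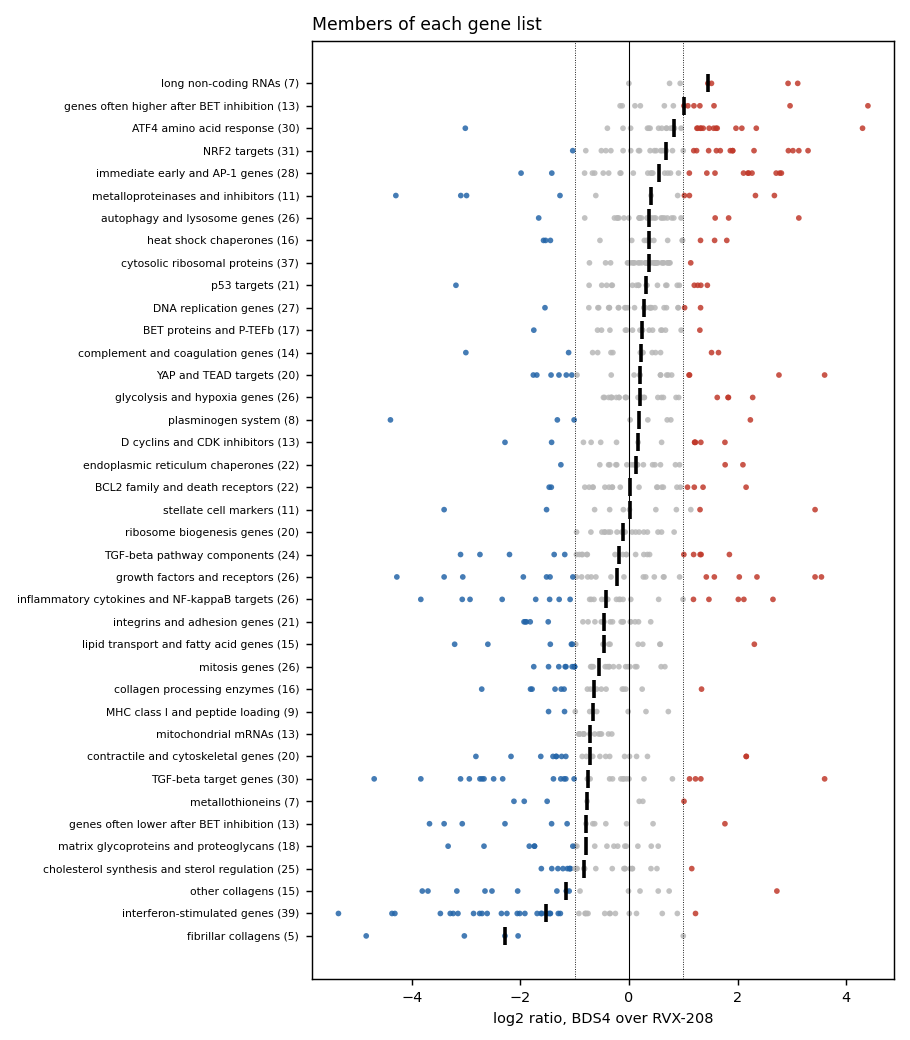
Log2 ratio of BDS4 over RVX-208 (horizontal) of every measured member of the gene lists with at least 5 measured members (number in brackets). Red points were called higher, blue lower and grey neither, black bars mark list medians and dotted lines 2-fold. The collagen and interferon lists lie to the left, and the ATF4, NRF2 and immediate early lists reach to the right.

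Markers of other cell types were read beside these groups. Of 7 cholangiocyte and epithelial markers 4 were measured and 3 were lower, KRT18 (111 against 299 CPM), KRT8 (59.9 against 191 CPM) and SOX9 (22.9 against 48.5 CPM), while EPCAM and CDH1 had at most 4 counts. The summed level of the 7 was 195 CPM with BDS4 and 542 with RVX-208, and 488 and 853 in the control and with TGF-β alone. Endothelial markers summed to 12.6 and 14.5 CPM with the compounds, where KDR was higher (2.68-fold higher, 2.02 to 3.61) and TEK (17.4-fold lower, 8.87 to 38.8) and VWF lower. Macrophage and leukocyte markers summed to 21.4 and 13.2 CPM, with 2 and 4 of 8 at 0. Stellate markers summed to 4909 and 4337 CPM, most of it VIM in both libraries. Of 11 measured stellate markers 2 were higher (NGFR and RELN) and 2 lower (PDGFRB and PDGFRA). Of the 7 long non-coding RNAs listed 4 were higher, NEAT1 (7.62-fold higher, 7.28 to 7.97), KCNQ1OT1, MEG3 and GAS5, and the 13 mitochondrial mRNAs had 0 called and a median of -0.72. The part that these differences play in the gene groups was not tested.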

How the data were processed

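RNA of 4 LX-2 libraries was sequenced on a NovaSeq from a stranded paired-end mRNA kit, per the labels. Base calling used CASAVA 1.8 and alignment used TopHat2 2.0.6 on GRCh38, per the submitters' processing notes. The deposited values are raw read counts per gene and FPKM (fragments per kilobase of gene model, scaled to library depth), which the authors made with StringTie 1.3.0 according to the series' design text. The counting program was not given in the sources used here, nor were its annotation and strand setting. The BDS4 column carries a code and was matched to its sample by the sample's description.

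Counts were scaled by edgeR 4.0.16 TMM factors (R 4.3.3) over all 4 libraries, 1.06 for the control, 1.01 for TGF-β, 0.943 for BDS4 and 0.989 for RVX-208, and given as CPM. Genes with at least 1 CPM in either compared library were kept. With 1 library a side no p-value was computed. Ratios carry 95% exact conditional (Clopper-Pearson) intervals (scipy 1.17.1). A count of 0 was set to 3 counts for the ratio, which is then not an end of the interval. The procedure was tested on simulated Poisson counts, which hold counting error only, so the spread between cultures was not covered. FPKM was used only to check the columns against the counts (9069 genes above 200 counts differed by at most 0.000417%). Levels are CPM, not length-scaled, so genes are compared only across libraries. Positions, gene types and shared exons come from GENCODE 29, which matched 14932 of the 15455 genes, and promoters from RefSeq GRCh38.p14 (10890 genes). Exons shared with genes outside GENCODE 29 could not be seen, so a gene without shared exons is one with none in that release.

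Named genes were the 15 highest and 15 lowest protein-coding genes ranked on the interval's end closest to equality, with a symbol, at least 10 CPM in the higher library and no shared exons, then up to 4 called members of each list in each direction, and a fixed set of markers. Other list members are named to complete a group and were chosen after their values were seen. The members and the 44 gene lists were chosen with earlier results of these data known. Alternatives were other scalings, including DESeq2 1.42.0 size factors, other filters, a stricter call and summed counts of genes that share exons.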

Additional observations from a re-analysis of the deposited data

How the results depend on the processing

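No paired analysis was possible because each group had 1 library, and for the same reason no library could be left out. With at least 5 CPM required, 1148 genes were higher and 1380 lower with BDS4, of 12124 tested, so 45.4% of calls were higher. With the whole interval required beyond 2-fold, 1046 were higher and 1154 lower. The other settings (total counts, DESeq2 size factors, TMM over the 2 libraries, no filter, exon-sharing genes summed, mitochondrial genes left out) gave 1662 to 2281 higher and 1831 to 2411 lower. The share of calls that were higher was 47.9%, and 43.3% with scaling by total counts. Medians of genes raised and lowered by TGF-β were recomputed with total counts, DESeq2 size factors, 5 CPM required or mitochondrial genes left out. With the main setting included, they lay between -0.68 and -0.58 and between 0.28 and 0.46. They were not computed in the remaining settings. None of the genes of the naming rule changed direction while called in the scalings tried, with exon-sharing genes summed or with mitochondrial genes left out. Calls ended for 3 named genes under total counts (CCNE2, MT2A, TIMP3) and for 4 with exon-sharing genes summed (CCND2, FADS2, PDGFRA, TM7SF2). FN1 became called lower under total counts. The mean and median differed in sign for the metalloproteinase, plasminogen and complement lists (medians 0.41, 0.18 and 0.23, means -0.35, -0.33 and -0.04). List medians also changed sign for the metalloproteinases (-0.10), the D cyclin list (0.17 to -0.03) and the BCL2 list (0.01 to -0.31) at 5 CPM, and for the BCL2 and stellate marker lists under total counts (both from 0.01 to -0.06). Depth limits the genes near 1 CPM, where 17 or 20 counts give wide intervals, and the spread between cultures was not measured.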

Other observations

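The 12 families described here were chosen after their values were seen. Histone genes of the replication clusters were higher with BDS4 in 33 of 46 measured members (of 69 in the clusters) and lower in 1, H3C12, with a median log2 ratio of 1.56. Their mRNAs end in a stem-loop and mostly lack a poly(A) tail, and near-identical copies make the split of counts between members uncertain. The linker histone gene H1-4 was 6.92-fold higher (4.96 to 9.91) and H2BC5 was 2.96-fold higher (2.79 to 3.14). Of 9 histone genes outside the clusters, whose mRNAs carry a tail, 0 were called and the median was 0.25. Axonemal dynein heavy chain genes, which encode motors of cilia, were higher in 6 of 8 measured members and lower in 0, with DNAH3 at 0.921 CPM in the control, 1.27 with TGF-β alone, 27.3 with BDS4 and 3.74 with RVX-208 (7.30-fold higher, 5.62 to 9.63) and DNAH5 (0.872-fold, 0.645 to 1.18) and DNAH1 (0.879-fold, 0.655 to 1.18) not called.

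HOX genes keep the positional identity of mesenchymal cells. In the HOXB cluster 6 of 9 measured genes were lower and 0 higher (median -1.49), and in the HOXD cluster 5 of 7 were lower and HOXD1 was higher (median -1.48). HOXC had 3 of 8 lower and HOXA 2 of 7 lower and HOXA5 higher, with medians of -0.89 and 0.16. HOXB7 stood at 54.7 CPM in the control, 55.9 with TGF-β alone, 14.0 with BDS4 and 39.6 with RVX-208, and was 2.84-fold lower (2.46 to 3.27). HOXB2 was 6.03-fold lower (5.37 to 6.78). HOXA5 stood at 2.43 CPM in the control, 2.40 with TGF-β alone, 7.94 with BDS4 and 1.60 with RVX-208, and was 4.95-fold higher (3.28 to 7.75). Keratin genes were lower in 8 of 11 measured members and higher in 0. KRT81, KRT86 (11.5-fold lower, 8.12 to 16.8) and KRT80 (6.37-fold lower, 4.69 to 8.80) led them. WNT ligand genes divided. WNT5A (8.36-fold lower, 7.06 to 9.96), its paralogue WNT5B (5.72-fold lower, 4.84 to 6.78) and WNT7A were lower, while WNT4, WNT7B, WNT9A (3.93-fold higher, 3.27 to 4.75) and WNT11 were higher. Among 8 measured Frizzled receptor genes FZD1, FZD3 and FZD5 were higher and FZD2 and FZD6 lower. Of 74 mitochondrial ribosomal protein genes 11 were lower (14.9%, near the 13.0% of all genes tested) and 1 was higher (median -0.51). Of 32 nuclear genes of respiratory complex I 7 were lower (21.9%, against the same 13.0%) and 0 higher (median -0.53).

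Shares of called genes varied with the level and kind of gene. Among genes whose higher library lay at 1 to 5 CPM 21.2% were higher and 19.1% lower, and among those at 50 to 200 CPM 7.40% and 8.75%. Protein-coding genes were called in 10.5% and 12.8%, and lincRNA genes in 18.3% and 25.4%. Genes outside the naming rule reached further ratios. BLOC1S5-TXNDC5, a read-through of neighbouring genes, had 4150 counts with BDS4 and 0 with RVX-208, and ISY1-RAB43 had 496 and 0. In the other direction AMIGO3 had 7 and 401 counts and PTP4A1 65 and 2073. Of the called genes 645 share exon sequence on the same strand with another gene, and 329 of these were not called in that direction once such genes were summed. Of the genes tested, 22 had 0 counts with BDS4 and 52 had 0 counts with RVX-208.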
